A study of Homo sapiens with 12 samples.

Results

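The genes that encode the proteins of the cytosolic ribosome were examined in RNA sequencing of HCT116, an established cell line from a human colorectal carcinoma. Members were taken by name, as gene symbols that start with RPL or RPS and stand for a protein of the large or the small subunit, and by a mean level of at least 5 FPKM over all libraries. FPKM is a count of fragments on a gene scaled to the length of its exons and to the depth of the library. Of 25733 genes measured, 82 had such a name and 76 also passed the minimum, 47 of the large and 29 of the small subunit. The study asked how ammonia, given as NH4Cl, and the growth factor TGF-β act on these cells. It has 12 libraries in 4 groups of 3: control cells given vehicle, cells given 200 pM TGF-β for 1 h after 23 h of vehicle, cells given 10 mM NH4Cl for 24 h, and cells given 10 mM NH4Cl for 23 h before 200 pM TGF-β for 1 h. The libraries held 14807630 to 18191998 reads on genes. The labels number the libraries of each group from 1 to 3 and do not say what a replicate is, so p-values measure only the spread between these libraries, which may be technical.

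Ribosomal proteins bind ribosomal RNA in the nucleolus and form, with it, the large subunit that joins amino acids and the small subunit that reads the mRNA. Most of their mRNAs begin with a run of pyrimidines, the terminal oligopyrimidine (TOP) tract, through which mTOR signalling controls their translation. Ribosome production is commonly raised in colorectal cancer, where MYC is a known driver of it.

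The cells carried the markers of their label. All 8 epithelial markers listed were above 1 FPKM, led by the keratins KRT18, at 727 to 1180 FPKM per library, and KRT8, at 754 to 1102 FPKM. EPCAM, the epithelial adhesion molecule, was at 229 to 278 FPKM, and CDX2, the intestinal transcription factor, at 12.5 to 15.1 FPKM. CD3E, a leukocyte marker, stayed at or below 0.280 FPKM, while PTPRC and CD68 were not analysed here. The hepatocyte marker ALB was at 0.555 to 1.15 FPKM.

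The 76 members spanned 167-fold in mean FPKM, from 11.9 to 1985, with quartiles at 139, 276 and 501 FPKM. The median of all 12341 genes tested was 6.63 FPKM, and 34 of the 100 genes with the highest mean were members. Small subunit genes had a median of 352 FPKM and large subunit genes 227 FPKM. Members of high mean FPKM included RPL13A at 1985, RPS2 at 1210, RPS12 at 979, RPL8 at 786, RPLP0 at 732, RPL7A at 708, RPL41 at 679, RPS21 at 646 and RPS4X at 639. RPLP0 is the stalk protein often used as a reference gene, and RPS4X is encoded on the X chromosome. The lowest 5 were RPL22L1 at 11.9 FPKM, RPS15A at 19.3, RPL26L1 at 19.9, RPL26 at 21.1 and RPS29 at 31.3. RPL22L1 and RPL26L1 are paralogs, genes related by duplication to RPL22 and RPL26. The members lie on 20 chromosomes, with 12 of them on chromosome 19.

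RPL22L1 was the member nearest above the minimum of 5 FPKM. Genes under the minimum included RPS27L at 2.77 FPKM, RPL17 at 2.64, RPL36A at 1.01, RPL3L at 0.480 and RPS10 at 0.402. Some of these low values belong to genes whose exons are shared with a readthrough transcript on the same strand, where reads cannot be assigned to one gene. Of the exon bases of RPS10, 39.4% are shared with RPS10-NUDT3, and of those of RPL17, 24.8% with RPL17-C18orf32. None of the 76 members shares 50% or more of its exon bases with another gene on the same strand. RPL10 shares 55.5% when both strands are counted, mainly with genes on the opposite strand, and the strand setting of the counting was not given in the sources used here.

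Ribosomal protein genes have many processed pseudogenes, which are near copies of their mRNAs elsewhere in the genome. GENCODE names 1079 pseudogenes for 73 of the members, and 210 of them have values here. Their summed level of 6438 FPKM was 23.6% of the 27281 FPKM of the members. The level of RPS28P7, 1900 FPKM, was far above that of its parent RPS28, at 144 FPKM, and RPL9P9 stood at 611 FPKM beside 64.2 FPKM for RPL9. Both pairs were chosen after their values were seen. How reads were divided between a member and such copies is uncertain, so the order of levels among members is uncertain as well. Over the 76 members, log2 mean FPKM had Pearson's r −0.37 and Spearman's rho −0.40 with log2 exon length, and −0.05 and −0.07 with the number of pseudogenes. These correlations are across genes of the same libraries, which are not independent replicates, and exon length also enters FPKM itself.

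The start of transcription was read from RefSeq promoters on GRCh38.p14, each 250 bases before to 50 bases from the start. They covered 62 of the 76 members with 78 promoters, since 11 members have 2 or more listed starts. RPL23, RPL23A, RPL30, RPL37, RPL5, RPL7, RPL8, RPS15A, RPS2 and RPS20 were among those with no entry. A run of at least 8 bases of C or T, read on the transcribed strand and overlapping the 20 bases either side of the start, was present in 61 of 78 member promoters, or 78.2%. The share was 21.9% of all 35116 promoters and 13.1% of 84 promoters of mitochondrial ribosomal protein genes, while 9 of 11 promoters of other mRNAs with a TOP tract had such a run. Runs of at least 10 bases were in 70.5% of member promoters and 11.4% of all promoters. Other motifs were searched on both strands of the whole 300 bases. CCGGAAG, the core of ETS family sites, was in 33.3% of member promoters and 10.3% of all, but also in 38.1% of those of mitochondrial ribosomal protein genes and 30.8% of those of ribosome biogenesis factors. AAGATGGC, the core of YY1 sites, was in 8.97% of member promoters and 2.89% of all, below the 27.4% of mitochondrial ribosomal protein genes. TATAAA was in 7.69% of member promoters and 11.5% of all, and the E-box CACGTG in 6.41% and 7.26%, beside 48.7% of the promoters of ribosome biogenesis factors. A match is a description of the letters in the window and not of a bound factor.

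The windows shown run from 15 bases before to 15 bases from the start, 5′ to 3′ on the transcribed strand, with the longest C or T run near the start in capitals where it lies in the window. Where a gene has 2 or more listed starts, the one with the longest run was taken. The first 15 bases lie before the RefSeq start and the last 15 run from it. For several of these genes, RPL22 among them, that start lies inside the GENCODE gene coordinates given here. They are shown for RPL22L1, the gene higher with NH4Cl in the comparisons that follow, for RPS26, RPL18, RPL10 and RPS18, which were lower with it, and for RPS9, RPL39 and RPL12, which differed widely between replicate numbers. RPL22, RPL26L1, RPL26 and RPL7L1 complete the paralogs and partners. RPL22L1 is at chr3:170870181-170870210 on the minus strand, RPL22 at chr1:6199581-6199610 on the minus strand, RPL26L1 at chr5:172958714-172958743 on the plus strand, RPL26 at chr17:8383179-8383208 on the minus strand and RPL7L1 at chr6:42879601-42879630 on the plus strand. RPS26 is at chr12:56041903-56041932 on the plus strand, RPL18 at chr19:48619164-48619193 on the minus strand, RPL10, for 1 of its 3 listed starts, at chrX:154398050-154398079 on the plus strand and RPS18 at chr6:33272060-33272089 on the plus strand. RPS9 is at chr19:54200843-54200872 on the plus strand, RPL39 at chrX:119791616-119791645 on the minus strand and RPL12 at chr9:127451392-127451421 on the minus strand.
RPL22L1: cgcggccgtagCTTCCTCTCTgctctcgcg
RPL22: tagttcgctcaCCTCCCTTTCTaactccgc
RPL26L1: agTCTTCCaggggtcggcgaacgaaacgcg
RPL26: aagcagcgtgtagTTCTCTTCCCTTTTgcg
RPL7L1: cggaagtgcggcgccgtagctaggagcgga
RPS26: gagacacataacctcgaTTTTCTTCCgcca
RPL18: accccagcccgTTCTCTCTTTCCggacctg
RPL10: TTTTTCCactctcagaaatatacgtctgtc
RPS18: cgcgtcacttccgCTCTCTCTTCCacagga
RPS9: gtggcgcttccgcgCCTCTTTCTCagtgac
RPL39: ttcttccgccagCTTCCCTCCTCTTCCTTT
RPL12: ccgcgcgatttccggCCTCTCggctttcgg
The longest run near the start was 22 bases in RPL39, which goes on past the window, 14 in RPL26, 12 in RPL18, 11 in RPL22 and RPS18, and 10 in RPL22L1 and RPS9. In RPL10 it had 14 bases at positions −22 to −9, upstream of the start and partly outside the window. It was 9 bases in RPS26, 6 in RPL12 and RPL26L1, and 2 in RPL7L1. RPL22L1 thus carried a run like that of RPL22, while RPL26L1, at 1 of its 2 listed starts, had a shorter one than RPL26.

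The libraries numbered 3 stood apart from the others in all 4 groups. The summed FPKM of the 76 members was 26835, 25425 and 29918 in control replicates 1, 2 and 3, and 26174, 26104 and 30512 with TGF-β. It was 25069, 25142 and 29490 with NH4Cl, and 28014, 25247 and 29440 with NH4Cl and TGF-β. The 4 libraries numbered 3 were above the 8 others, at 29840 ± 497 FPKM (SD, n = 4), beside 26523 ± 1232 for those numbered 1 and 25479 ± 432 for those numbered 2. The library of replicate 1 with NH4Cl and TGF-β was also high for its number, with 58 of 76 members above their own mean of 12 libraries. As a share of all FPKM the members took 9.32% to 10.1%, and the values of replicate 3 then overlapped the others. As a share of reads on genes they took 8.63%, 8.73%, 8.48% and 8.44% in the libraries numbered 3, and 7.68% to 8.10% in 7 of the 8 others, while replicate 1 with NH4Cl and TGF-β had 8.45%. The FPKM of all genes summed to 301728 to 305984 in the libraries numbered 3 and to 262958 to 278920 in the rest. The library total by which FPKM had been scaled was 0.964 to 0.969 times the reads on genes in the libraries numbered 3 and 1.02 to 1.03 times in the rest, which sets every FPKM of the libraries numbered 3 higher than scaling by these reads would. Within groups, the median SD of a member was 0.13 on the log2 scale and became 0.056 once the replicate number was taken into account.

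**Figure D1:**
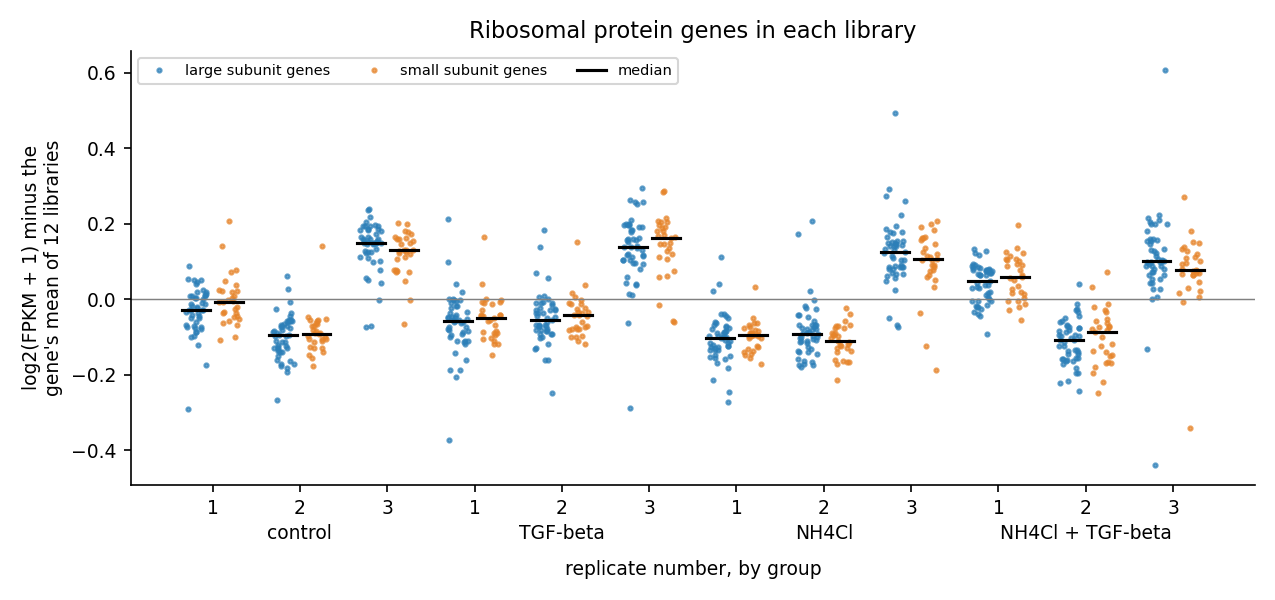
Each point is 1 of the 76 genes in 1 library, as log2(FPKM + 1) minus that gene's mean of 12 libraries, for large (blue) and small (orange) subunit genes, with medians as black bars. In each group the genes of the library numbered 3 lie mostly above 0, and in NH4Cl + TGF-beta replicate 1 the median is also above 0, at 0.06.

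The control mean of summed FPKM was 27393 ± 2298 FPKM, that of TGF-β 27597 ± 2525, that of NH4Cl 26567 ± 2532 and that of both agents 27567 ± 2132 (SD, n = 3 each). NH4Cl differed from control by −3.01%, where the SD of control, which includes the difference between replicate numbers, was 8.39% of its mean. Within pairs of equal number NH4Cl was below control in all 3, with differences of −6.58%, −1.11% and −1.43% for the numbers 1, 2 and 3. As a share of all FPKM the members were also lower with NH4Cl in each pair, at 9.36%, 9.32% and 9.65% beside 9.85%, 9.51% and 9.78%. No test was made of these sums. The difference was −1.28%, −3.87% and −3.92% when the pair numbered 1, 2 or 3 was left out, a choice made after seeing the data. When 1 library was left out and its pair became incomplete, it ran from −8.35% without NH4Cl replicate 3 to 1.67% without control replicate 3. In bulk samples such as these, fewer cells that express a gene and less of its RNA per cell cannot be told apart. The ratio of large to small subunit FPKM was 1.22 to 1.25 over the 12 libraries. Its mean was 1.23 in each of the 4 groups, with SDs of 0.0099, 0.0026, 0.012 and 0.014. By number, the ratio was 1.219 to 1.226 in replicate 1, 1.227 to 1.241 in replicate 2 and 1.231 to 1.247 in replicate 3. Medians over genes ran the other way, at 227 FPKM for large and 352 FPKM for small subunit genes.

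**Figure D2:**
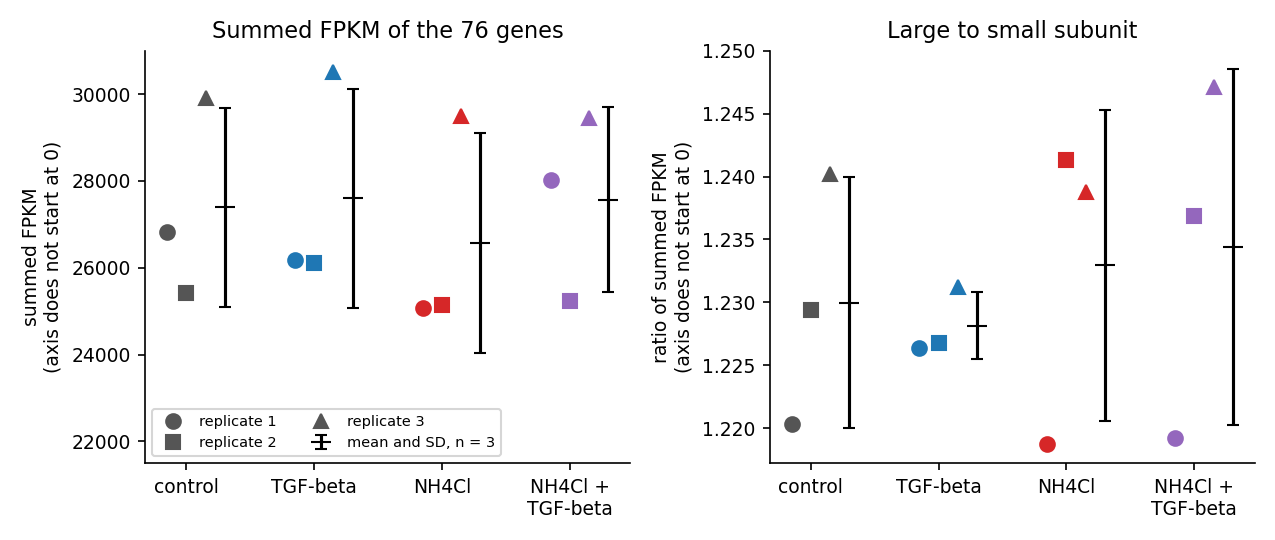
The left panel plots the summed FPKM of the 76 genes and the right panel the ratio of large to small subunit FPKM, each by group, with 1 symbol per replicate number and the mean and SD (n = 3) beside; the axes do not start at 0. Triangles, the libraries numbered 3, lie between 29440 and 30512 FPKM, above all other libraries.

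Without regard to replicate number, no ribosomal protein gene passed the test in any comparison of groups. Genes were tested with limma on log2(FPKM + 1), two-sided, with p-values adjusted over all 12341 genes with a mean of at least 1 FPKM, and adjusted p under 0.05 counted as passed. Fold changes on this scale understate the change of low genes. For NH4Cl against control, 0 of 76 members and 0.381% of all genes passed in limma, and 0 members had an unadjusted p under 0.05. For TGF-β against control, 0 members and 0% of all genes passed, and 0 members had an unadjusted p under 0.05. For NH4Cl and TGF-β against control it was 0 members and 0.948% of all genes, and against TGF-β alone 0 members and 1.03%, each with 0 members at an unadjusted p under 0.05. For NH4Cl and TGF-β against NH4Cl alone, and for the interaction of both agents, 0 members and 0% of all genes passed, with 0 members at an unadjusted p under 0.05. The 95% intervals of the members' log2 fold changes ran from −0.46 to 0.79 for NH4Cl and from −0.38 to 0.48 for TGF-β, from the lowest to the highest bound over the 76 genes.

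With NH4Cl, a few ribosomal protein genes differed from control once libraries of the same replicate number were compared with each other. Libraries of the same number deviated together, and the replicate number was therefore also fitted as a block. With this block 6 of 76 members passed in limma for NH4Cl against control, 1 higher and 5 lower, beside 13.6% of all genes, 7.42% higher and 6.14% lower. The members' share of 7.89% was below that of all genes. The single rise was in RPL22L1, and the falls were in RPS26, RPL8, RPL18, RPL10 and RPS18. All 6 also passed, in the same direction, when values were scaled to a common sum (TPM) or centred on the library median. Of all genes, 11.968% passed with a common sum and 13.524% with centring. The set of members was not the same at each scaling, since RPL22 also passed with centring. The total of members that passed at these scalings is not given here. Of the 76 members, 54 had a negative and 22 a positive log2 fold change, with a median of −0.03. The median of all genes tested was 8.4e-05. The 3 pairs of equal number were all lower with NH4Cl in 32 members, or 42.1%, beside 25.3% of all genes, and all higher in 3 members, beside 26.4% of all genes. Scaled to a common sum, an alternative chosen after seeing the data for these orders, they were all lower in 34 members and 24.5% of all genes, and all higher in 12 members and 27.1% of all genes. No test was made of these orders.

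RPL22L1 (ENSG00000163584, chr3:170864875-170870483, minus strand) is the paralog of RPL22, and the product of each can stand in the large subunit. It was at 9.32, 9.49 and 11.6 FPKM in control replicates 1, 2 and 3, and at 11.8, 11.6 and 16.8 FPKM with NH4Cl. The lowest NH4Cl value lay at the level of the highest control value, with no overlap by a small margin, and each NH4Cl library was above the control library of its number. The log2 fold change was 0.36 (SE 0.080, 95% interval 0.18 to 0.54), with an adjusted p of 0.0175 in limma with the block and 0.569 without it. These values rest on 340 to 719 reads per library. Over 16 alternatives the log2 fold change was 0.29 to 0.41 and the adjusted p 0.0078 to 0.569, and 8 of them kept the call.

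The genes that fell encode proteins of both subunits. RPS26 (ENSG00000197728, chr12:56041351-56044697, plus strand), whose product lies at the mRNA exit channel of the small subunit, was at 85.2, 81.4 and 70.3 FPKM in control and at 71.1, 70.2 and 64.5 FPKM with NH4Cl. The groups overlapped, since control replicate 3 was within the NH4Cl range, and each NH4Cl library was below the control library of its number. Its log2 fold change was −0.20 (SE 0.052), with an adjusted p of 0.0336 with the block and 0.630 without it. RPL8, a protein near the peptidyl transferase centre, was at 834, 780 and 869 FPKM in control and at 713, 703 and 758 FPKM with NH4Cl. Its groups did not overlap, which held for 2 of 76 members in this comparison, RPL8 and RPL22L1, and for 17.5% of all genes. When scaled to a common sum, it held for 16 members and 13.7% of all genes. The log2 fold change of RPL8 was −0.19 (SE 0.042), with an adjusted p of 0.0164 with the block and 0.482 without it.

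RPL18 (chr19:48615328-48619536, minus strand), a large subunit protein, was at 340, 325 and 387 FPKM in control and at 285, 299 and 354 FPKM with NH4Cl. All 3 pairs of equal number were lower, and the groups overlapped. The log2 fold change was −0.17 (SE 0.041), with an adjusted p of 0.0270 with the block and 0.733 without it. RPL10 (chrX:154389955-154409168, plus strand), a protein added late to the large subunit, was at 410.0, 389 and 460 FPKM in control and at 357, 361 and 430.2 FPKM with NH4Cl, a log2 fold change of −0.13 (SE 0.038, adjusted p 0.0435 with the block and 0.771 without it). RPS18 (chr6:33272010-33276510, plus strand), a protein of the small subunit head, was at 631, 579 and 672 FPKM in control and at 564, 545 and 626 FPKM with NH4Cl, a log2 fold change of −0.12 (SE 0.032, adjusted p 0.0370 with the block and 0.771 without it). Both genes were lower with NH4Cl in all 3 pairs, and their groups overlapped.

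Which members passed with the block varied with the library left out. No member passed without control replicate 1. RPL22L1 alone passed without control replicate 2, RPL8 alone without control replicate 3 or without NH4Cl replicate 1, RPL18 alone without NH4Cl replicate 2 and RPS26 alone without NH4Cl replicate 3. The share of all genes that passed also fell in these fits, from 13.6% to between 5.71% and 11.3%. Over the 16 alternatives, these included, the log2 fold changes kept their sign, at 0.29 to 0.41 for RPL22L1, −0.25 to −0.16 for RPS26, −0.21 to −0.15 for RPL8, −0.20 to −0.12 for RPL18, −0.15 to −0.10 for RPL10 and −0.13 to −0.10 for RPS18. With the libraries numbered 3 left out, a choice made after seeing the data, 2 members passed with the block, RPL22L1 and RPS26, beside 9.42% of all genes. In the same libraries 3 passed without the block, RPL22L1, RPL8 and RPS26, beside 10.5% of all genes.

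**Figure D3:**
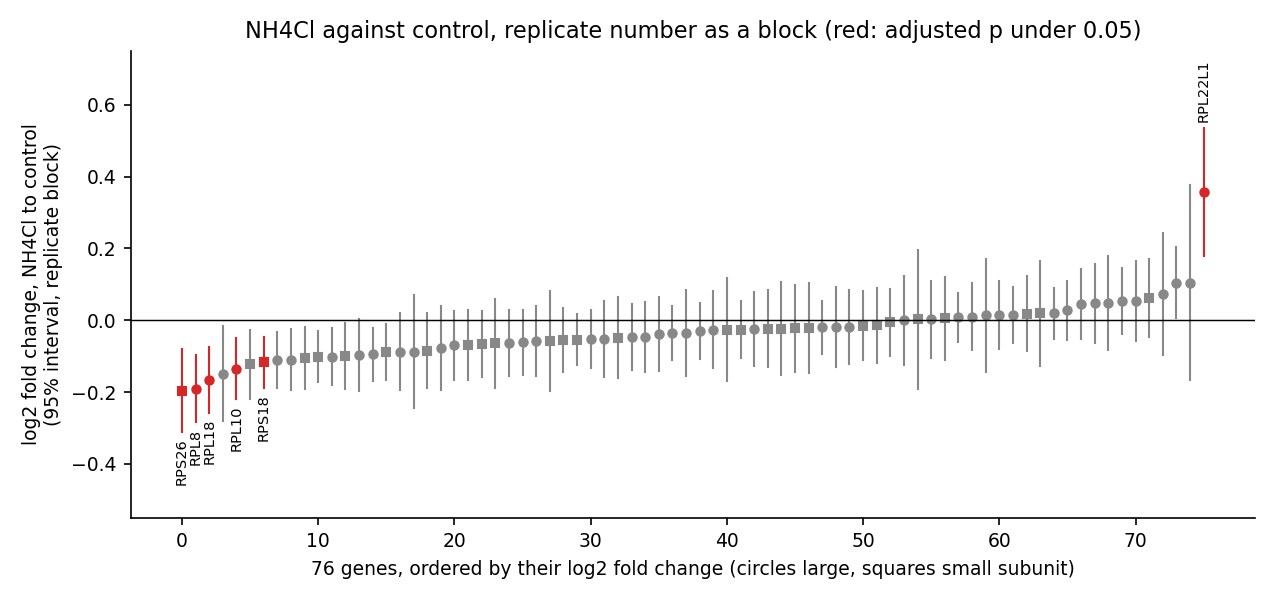
Log2 fold change of NH4Cl to control for the 76 genes in order of size, with 95% intervals from the fit with the replicate block; circles are large and squares small subunit genes, and red marks adjusted p under 0.05. RPL22L1 stands at 0.36 and the 5 red genes on the left lie between −0.20 and −0.12.

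TGF-β alone moved no ribosomal protein gene past the threshold. With the block, 0 of 76 members passed in limma for TGF-β against control, 0 had an unadjusted p under 0.05, and 0.00810% of all genes, which is 1 gene, passed. The members' log2 fold changes had a median of 0.01, and their 95% intervals with the block ran from −0.32 to 0.23. RPL13A, the most abundant member, was at 1844, 1794 and 2133 FPKM in control and at 1845, 1804 and 2211 FPKM with TGF-β. The 2 groups overlapped, and in each the library numbered 3 was the highest.

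With NH4Cl and TGF-β together, RPL22L1 again rose and RPS26 again fell against control, in a comparison that shares its control libraries with that of NH4Cl alone. With the block, 3 of 76 members passed in limma, beside 18.4% of all genes: RPL22L1 and RPL13A rose and RPS26 fell. RPL22L1 was at 11.2, 10.7 and 18.2 FPKM with both agents, each above the control library of its number, and its groups overlapped. Its log2 fold change was 0.34, with an adjusted p of 0.0177 with the block and 0.530 without it. Over 16 alternatives it was 0.20 to 0.41, and 11 of them kept the call. RPS26 was at 80.5, 73.0 and 57.9 FPKM, a log2 fold change of −0.17 with an adjusted p of 0.0462 with the block and 0.626 without it. This fold change was −0.23 to −0.10 over 16 alternatives, of which 5 kept the call. RPL13A (ENSG00000142541, chr19:49487554-49492308, plus strand), a protein that also takes part in translational silencing, was at 2066, 1959 and 2277 FPKM with both agents. All 3 pairs were higher than control, with a log2 fold change of 0.13 (SE 0.037) and an adjusted p of 0.0392 with the block and 0.732 without it. RPL13A did not pass when values were centred on the library median, where 1 member was higher and 2 lower beside 18.7% of all genes, while a common sum gave 5 higher and 1 lower beside 16.6%. The members' median was 0.01, and 42 of 76 log2 fold changes were positive.

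Against TGF-β alone, the addition of NH4Cl gave 1 member past the threshold with the block, beside 18.8% of all genes. This was RPL22L1, at 9.95, 9.63 and 12.01 FPKM with TGF-β and higher in each of the 3 pairs with both agents. Its log2 fold change was 0.29, with an adjusted p of 0.0327 in limma with the block and 0.603 without it. Over 16 alternatives it was 0.15 to 0.36, and 6 of them kept the call. A common sum gave 3 members higher and 3 lower in this comparison beside 16.5% of all genes, centring on the library median 1 and 1 beside 19.2%, and a minimum of 5 FPKM for testing 2 and 2 beside 26.2%, RPL22L1 among the higher ones each time. The members' share was below that of all genes at each of these settings. For NH4Cl and TGF-β against NH4Cl alone, 0 members and 0.00810% of all genes passed in limma with the block. In that comparison 12 members had an unadjusted p under 0.05. The share of all genes at an unadjusted p is not given here, so this count cannot be set against it. For the interaction, 0 members and 0% of all genes passed with the block, and 1 member had an unadjusted p under 0.05, so NH4Cl effects with and without TGF-β were not shown to differ. The members' 95% intervals with the block ran from −0.38 to 0.24 for NH4Cl and TGF-β against NH4Cl, and from −0.48 to 0.37 for the interaction.

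The high library of replicate 1 bears on the comparisons with both agents. Its members were above TGF-β replicate 1 by a median of 0.11 on the log2 scale, while replicates 2 and 3 were both at −0.06. Without it, with the block, 6 of 76 members passed for NH4Cl and TGF-β against control, or 7.89%, beside 11.9% of all genes, where RPL22L1 rose and RPL10, RPL15, RPL27, RPL41 and RPS26 fell. Against TGF-β alone 7 of 76 members passed without it, beside 11.4% of all genes, where RPL10, RPL15, RPL27, RPL41, RPS20, RPS26 and RPSA fell. Against control, RPL22L1 alone passed without control replicate 1, without control replicate 2 or without replicate 2 of both agents, and no member passed without control replicate 3. RPL22L1 and RPL13A passed without replicate 3 of both agents. Against TGF-β alone, no member passed without TGF-β replicate 2 or without TGF-β replicate 3, RPL27 passed without TGF-β replicate 1 and RPL21 without replicate 3 of both agents. With 1 library left out, 9.47% to 13.9% of all genes passed against control and 10.2% to 14.6% against TGF-β alone. With the libraries numbered 3 left out, RPL22L1 alone passed against control with or without the block, beside 13.1% and 13.3% of all genes. Against TGF-β alone 0 members passed in limma in those libraries, beside 13.6% of all genes with the block and 14.3% without it. An unadjusted p under 0.05 was found for 7 members with the block and 5 without it. The share of all genes at an unadjusted p is not given here.

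RPL22 (chr1:6185020-6209389, minus strand), the partner of RPL22L1, was at 72.7, 72.6 and 84.7 FPKM in control, 71.3, 72.4 and 76.01 with TGF-β, 68.5, 67.3 and 76.8 with NH4Cl, and 73.9, 72.5 and 79.3 with both. NH4Cl libraries were below control in all 3 pairs for RPL22 and above it in all 3 for RPL22L1, though RPL22 did not pass with or without the block and passed with it only when values were centred on the library median. RPL26L1 (chr5:172958729-172969771, plus strand) was at 20.3, 20.7 and 18.7 FPKM in control, 23.1, 22.6 and 16.01 with TGF-β, 21.4, 22.98 and 18.7 with NH4Cl, and 21.0, 19.3 and 14.3 with both. In each group its library numbered 3 was the lowest. Its partner RPL26 (chr17:8377516-8383250, minus strand) was at 18.4, 18.9 and 24.9 FPKM in control, 15.97, 23.1 and 21.2 with TGF-β, 19.8, 23.7 and 23.2 with NH4Cl, and 22.8, 18.7 and 22.5 with both. In RPL26 the library numbered 3 was the highest in control only. Its mean of 21.1 FPKM was close to the 19.9 FPKM of RPL26L1, whereas RPL22, with a mean of 74.0 FPKM, was well above the 11.9 FPKM of RPL22L1.

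RPL7L1 (chr6:42879618-42889925, plus strand), whose product takes part in ribosome assembly, was at 34.2, 34.5 and 32.2 FPKM in control and 36.3, 35.6 and 32.4 with TGF-β. It was at 34.8, 34.4 and 32.2 FPKM with NH4Cl and 34.3, 34.8 and 30.8 with both. Its libraries numbered 3 were all below the 8 others. RPL7 was at 315, 314 and 371 FPKM in control, 311 to 370 with TGF-β, 302 to 375 with NH4Cl and 302 to 364 with both, with the library numbered 3 the highest in each group. RPS27L and RPL3L, under the minimum, were at 2.62 to 3.14 and 0.320 to 0.666 FPKM, beside means of 356 for RPS27 and 612 for RPL3.

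**Figure D4:**
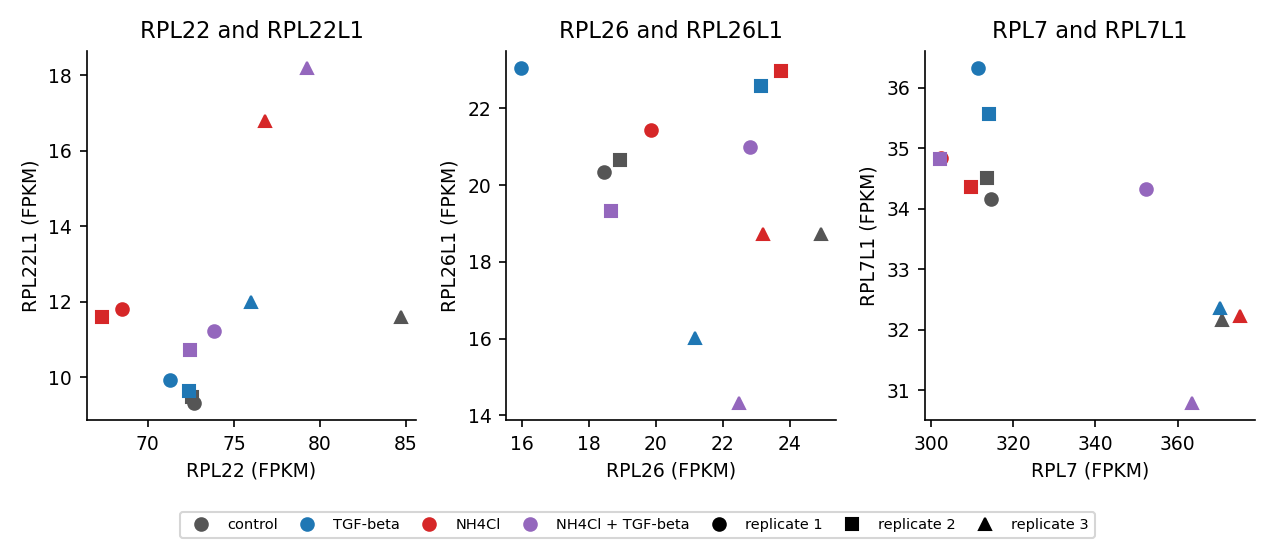
FPKM of each paralog (vertical axis) against its partner (horizontal axis) in the 12 libraries, coloured by group and with 1 symbol per replicate number. Triangles, the libraries numbered 3, lie high for RPL22L1, up to 18.2 FPKM, and low for RPL26L1 and RPL7L1, down to 14.3 and 30.8 FPKM.

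More members passed between replicate numbers than between any groups. In a fit with group and replicate number, 0 of 76 members and 0% of all genes passed in limma for replicate 2 against replicate 1, with 3 members at an unadjusted p under 0.05. For replicate 3 against replicate 1, 61 members were higher and 3 lower, 64 in all beside 52.1% of all genes, 25.6% higher and 26.4% lower. For replicate 3 against replicate 2, 69 members were higher and 3 lower, beside 54.0% of all genes, 26.9% higher and 27.1% lower. The median log2 fold change of the members was 0.17 and 0.23, and that of all genes −0.01 in both. These 2 comparisons share the libraries numbered 3. Scaling to a common sum moved the median of all genes to −0.16 and −0.18, and left 11 members higher and 10 lower against replicate 1 and 20 higher and 5 lower against replicate 2. These were 27.6% and 32.9% of the members, beside 60.7% and 64.3% of all genes, a share below that of all genes where it was above without this scaling. No test was made of members against all genes. Of all genes, 13.2% were then higher and 47.5% lower against replicate 1, and 13.3% and 51.0% against replicate 2. The members' median relative to that of all genes remained 0.17 and 0.23 with that scaling, beside 0.18 and 0.24 without it. Centring on the library median gave 53 higher and 3 lower beside 53.2% of all genes, and 66 higher and 3 lower beside 54.1%, a scaling in which, but for the pseudocount, the library total cancels.

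In FPKM, all 4 libraries numbered 3 were above the 8 others in 43 of 76 members, beside 15.8% of all genes, and below them in 2, RPL26L1 and RPL7L1, beside 15.4%. On a common sum, a scaling chosen for this order after seeing the data, they were above in 2 members and below in 3, beside 7.24% and 33.6% of all genes, so the count of 43 did not hold on that scale. Among 365 genes with a mean of 100 FPKM or more, the 60 members all had a positive log2 fold change of replicate 3 to 2, with a median of 0.23, while 180 of the 305 other genes were positive, with a median of 0.05. Over all 12341 genes this fold change had Pearson's r −0.13 with log2 exon length, and 0.08 over the 76 members, across genes of the same libraries. Members with 2 or more listed starts were placed by the start with the longest C or T run. The 54 members with a C or T run of at least 8 bases near the start had a median of 0.23, and the 8 with a shorter run 0.16. The latter ranged from −0.32 in RPL26L1 to 0.32 in RPL12, and RPS26, with a run of 9 bases, was at −0.22.

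RPL22L1 had the largest range of the 76 members over replicate numbers. Its log2 fold change of replicate 3 was 0.42 to replicate 1 and 0.44 to replicate 2 (SE 0.069 each), with adjusted p of 6.9e-04 and 4.3e-04 in limma. RPS9 (chr19:54200742-54249003, plus strand), a small subunit protein that acts in decoding fidelity, was at 303, 285 and 357 FPKM in control, 288, 290 and 379 with TGF-β, 280.2, 268 and 342 with NH4Cl, and 306, 282 and 375 with both. Its log2 fold changes were 0.30 and 0.37 (SE 0.031 each). RPL39 (chrX:119786504-119791643, minus strand), a small protein at the exit tunnel of the large subunit, was at 179, 170 and 222 FPKM in control, 170.1, 179 and 213 with TGF-β, 171, 176 and 230.0 with NH4Cl, and 208, 163 and 220.1 with both. In RPS9 and RPL39 all 4 libraries numbered 3 were above the 8 others. RPL12 (chr9:127447674-127451405, minus strand), a protein of the stalk base, was at 367, 349 and 448 FPKM in control, 351, 357 and 440.1 with TGF-β, 381, 392 and 479 with NH4Cl, and 422, 372 and 467 with both. Its log2 fold changes were 0.27 and 0.32 (SE 0.038 each), and those of RPL37 were 0.31 and 0.36 (SE 0.043 each).

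The 3 members lower in the libraries numbered 3 were RPL26L1, RPS26 and RPL7L1. RPL26L1 had log2 fold changes of −0.33 and −0.32 (SE 0.066 each) to replicates 1 and 2, with adjusted p of 0.0022 and 0.0023 in limma. RPS26 had −0.28 and −0.22 (SE 0.045 each), and RPL7L1 −0.13 and −0.12 (SE 0.027 each). All 3 were lower with either other scaling as well. RPL26 was not past the threshold, with log2 fold changes of 0.25 and 0.12 (SE 0.11 each) and adjusted p of 0.0715 and 0.359. RPL22 and RPL7 were higher in the libraries numbered 3, at 0.14 and 0.15 and at 0.21 and 0.25, so RPL26L1 and RPL7L1 lay on the other side of 0 from their partners.

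Some markers of other cell types, at low levels, varied between libraries, with no test of their sums. The 3 endothelial markers, 1 of them above 1 FPKM on average, summed to 1.72, 1.93 and 4.17 FPKM in control, 1.88, 1.56 and 4.35 with TGF-β, 2.70, 2.99 and 5.85 with NH4Cl, and 2.66, 2.81 and 6.84 with both, led by VWF. These sums were highest in the library numbered 3 of each group and higher with NH4Cl than in control in all 3 pairs. VWF was at 1.54, 1.66 and 3.90 FPKM in control and 2.47, 2.75 and 5.67 with NH4Cl, higher in all 3 pairs. PECAM1 and CDH5, which define these cells, were at most 0.0911 and 0.355 FPKM. The 3 fibroblast markers, also with 1 above 1 FPKM, summed to 1.30, 1.36 and 2.14 FPKM in control, 1.31, 1.15 and 2.12 with TGF-β, 1.61, 1.71 and 2.02 with NH4Cl, and 1.43, 1.48 and 2.63 with both, led by COL1A1. They too were highest in the library numbered 3 of each group, while NH4Cl was above control in pairs 1 and 2 and below it in pair 3. COL1A2 and PDGFRA, 2 of the 3, were at most 0.0185 and 0.0213 FPKM. ALB was at 1.07, 0.965 and 0.839 FPKM in control and 0.595, 0.562 and 0.574 with NH4Cl, lower in all 3 pairs, and its mean under 1 FPKM kept it out of the test. The 8 epithelial markers summed to 2908 to 3429 FPKM in the libraries numbered 3 and to 2286 to 2527 FPKM in the others. They summed to 2527, 2418 and 3328 FPKM in control and to 2286, 2311 and 2908 with NH4Cl, lower in all 3 pairs. The part of these markers in the members' results, with NH4Cl and between replicate numbers, was not tested.

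Other genes of ribosome production and translation were taken as lists. The share of all genes past the threshold was 13.6% for NH4Cl with the block and 54.0% for replicate 3 against replicate 2. With a common sum the latter was 64.3%, and the median log2 fold change of all genes was −0.18. RPL36AL, a paralog of RPL36A, and FAU, a fusion of a ubiquitin-like and a small subunit protein, had log2 fold changes of 0.06 and −0.03 for NH4Cl and did not pass in limma with the block. For NH4Cl and TGF-β against TGF-β, RPL36AL rose by 0.15 on the log2 scale, with an adjusted p of 0.0464 with the block, and did not pass when values were centred on the library median. RACK1, a scaffold protein on the small subunit, was higher in replicate 3 than in replicate 2 by a log2 fold change of 0.24, and with a common sum it did not pass.

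Of 39 ribosome biogenesis factors, which process ribosomal RNA and assemble the subunits, 1 rose and 5 fell with NH4Cl in limma with the block, 15.4% in all and near the share of all genes. NOP56, a core protein of the box C/D particles that methylate ribosomal RNA, was at 70.7, 67.7 and 53.6 FPKM in control and 59.0, 56.7 and 45.3 with NH4Cl. Every NH4Cl library was below the control library of its number, with a log2 fold change of −0.25 (SE 0.034, adjusted p 0.0020). PES1, of the PeBoW complex, fell by 0.26 on the log2 scale and EBNA1BP2 by 0.25, while NMD3, the export adaptor of the large subunit, rose. With both agents 1 rose and 10 fell against control, 28.2% in all, where 18.4% of all genes passed. In replicate 3 against replicate 2, 2 of 39 were higher and 30 lower, with a median of −0.26, on the other side of 0 from the ribosomal protein genes, and with a common sum it was 2 and 37.

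Of 11 RNA polymerase I genes, which transcribe ribosomal RNA, POLR1D rose with NH4Cl by 0.19 on the log2 scale (adjusted p 0.0077 with the block). UBTF and TAF1C had log2 fold changes of −0.16 and −0.13 and did not pass. In replicate 3 against replicate 2, 3 of the 11 were higher and 5 lower. Of 8 transcription factors named for ribosomal protein genes, MYC rose with NH4Cl and E2F1 and GABPB1 fell. MYC was at 214, 212 and 286 FPKM in control and at 252, 245 and 341 FPKM with NH4Cl, higher in all 3 pairs, with a log2 fold change of 0.23 (SE 0.040, adjusted p 0.0052 with the block). The log2 fold changes of GABPB1 and E2F1 were −0.22 and −0.19 (adjusted p 0.0400 and 0.0242 with the block). In replicate 3 against replicate 2, 3 of the 8 were higher, MYC by 0.53, and 2 lower.

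Of 15 other mRNAs with a TOP tract, HNRNPA1 and EEF1D, an elongation factor subunit, fell with NH4Cl, by 0.19 and 0.14 on the log2 scale (adjusted p 0.0066 and 0.0345 with the block). EEF1B2 was at −0.12 and did not pass. In replicate 3 against replicate 2, 14 of the 15 were higher and 0 lower in limma, with 15 at an unadjusted p under 0.05 and a median of 0.20, close to the 0.23 of the ribosomal protein genes. With a common sum 4 were higher and 2 lower. Of 7 regulators of TOP translation, RPS6KB2, a kinase of ribosomal protein S6, fell with NH4Cl by 0.22 on the log2 scale (adjusted p 0.0176 with the block). EIF4EBP1 and EIF4EBP2, which bind the cap-binding protein, had log2 fold changes of 0.10 and −0.09 and did not pass. In replicate 3 against replicate 2, 1 of the 7 was higher and 4 lower, MTOR among the latter at −0.46.

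Of 75 mitochondrial ribosomal protein genes, which serve the other ribosome of the cell, 5 rose and 5 fell with NH4Cl in limma with the block, 13.3% in all and near the share of all genes. MRPS6 rose by 0.36 on the log2 scale, from 16.8, 15.4 and 19.1 FPKM in control to 19.9, 20.8 and 26.3 FPKM, with an adjusted p of 0.0021. MRPL1 fell by 0.32 and MRPL52 by 0.25. In replicate 3 against replicate 2, 4 of 75 were higher and 33 lower, with a median of −0.12, and with a common sum 1 was higher and 67 lower.

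**Figure D5:**
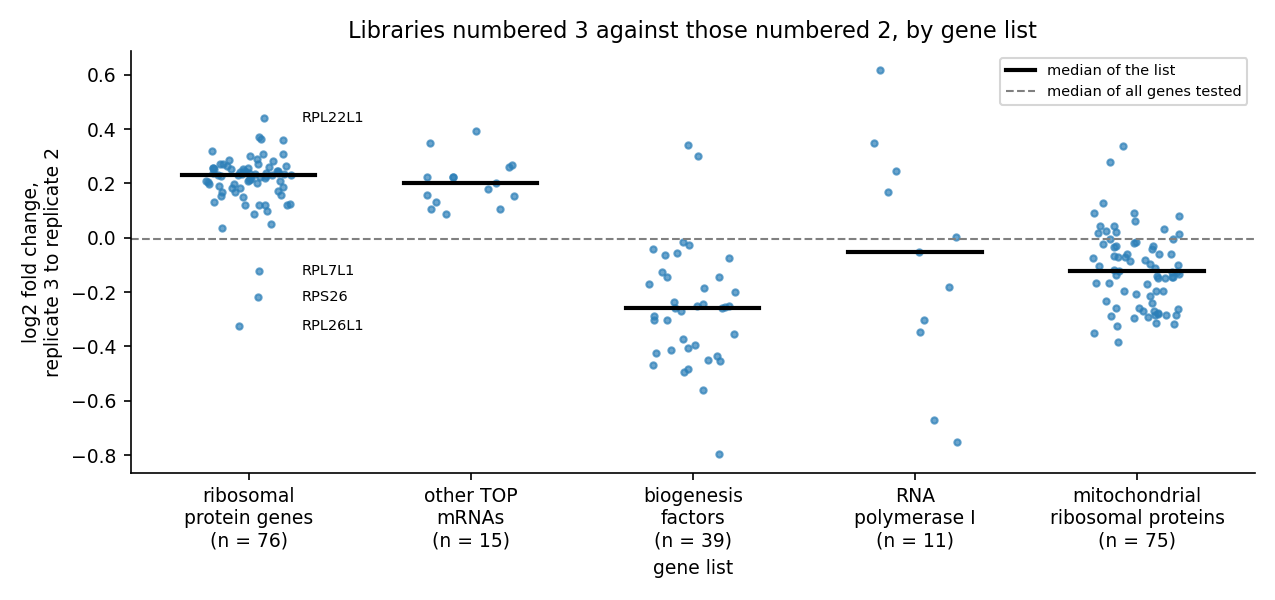
Log2 fold change of the libraries numbered 3 to those numbered 2 for each gene (points) of 5 lists, with list medians as black bars and the median of all genes tested as a dashed line. Ribosomal protein genes and other TOP mRNAs have medians of 0.23 and 0.20, and biogenesis factors and mitochondrial ribosomal protein genes −0.26 and −0.12.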

How the data were processed

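RNA sequencing of 12 HCT116 libraries was used as deposited by the authors, in FPKM per gene. The submitters' processing notes name Trimmomatic 0.36, STAR 2.5.2b, featureCounts (Subread 1.5.2), DESeq2 and the GRCh38/hg38 build. The study's methods name HTSeq as the counter, and which one made the table was not settled. All 25733 gene IDs matched GENCODE release 29, which gave names, exon lengths and gene coordinates on GRCh38. FPKM times exon length and a total found for each library gave whole reads, within 0.05, for 100% of values, and 14807630 to 18191998 reads on genes per library. These totals were 0.964 to 1.03 times the reads on genes; how the authors set them was not given in the sources used here. Members and lists were chosen with earlier results of these data known.

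limma 3.58.1 (R 4.3.3) was fitted on log2(FPKM + 1) to genes with a mean of at least 1 FPKM, with an intensity trend, all 4 groups in 1 model, and Benjamini-Hochberg adjustment over 12341 genes. The fit was run on simulated data in which, by replicate number, only the libraries numbered 3 were shifted. It did not cover pairing of the numbers 1 and 2, and its outcome is not given here. In 18 pairs of libraries of equal number, deviations from group means correlated at 0.349 to 0.774. The range was 0.702 to 0.774 among libraries numbered 3 and 0.349 to 0.533 among those numbered 1 or 2. Pairs of unequal number were not compared. Each deviation is from a mean of 3 libraries, so an offset of the library numbered 3 alone gives the others a shared deviation. The correlations therefore cannot show whether the numbers 1 and 2 pair libraries, and the labels do not say it. Python 3.11.15, numpy 2.4.6, pandas 2.3.3 and matplotlib 3.10.9 were used for the rest.

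Named members were the 10 highest and 5 lowest by mean FPKM, up to 5 largest rises and falls past the threshold in each comparison, the 5 with the largest range over replicate numbers, and paralogs whose symbol ends in L or L1 with their partners. In each other list the 3 largest changes with NH4Cl were named. POLR1F, POLR1G, POLR1H and EEF1G were not analysed here, and 3 listed genes were under 1 FPKM. Alternatives were a pseudocount of 0.1, no filter, a minimum of 5 FPKM, an adjusted p under 0.01, scaling to a common sum (TPM), centring on the library median, no trend, only the groups compared, the block, and leaving out each library. The replicates 1 and 2 alone, and all of these with the block, were added after seeing the data. Results for some genes that these rules name are not reported here.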

Additional observations from a re-analysis of the deposited data

Results flagged for a closer look

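RPL22 and RPS7 were singled out because NH4Cl moved all 3 pairs of libraries one way without TGF-β and all 3 the other way with it. For RPL22, NH4Cl minus control was −0.08, −0.11 and −0.14 in replicates 1, 2 and 3 on the log2 scale, and with TGF-β present the differences were 0.05, 0.0019 and 0.06. The interaction was 0.15 (SE 0.049 with the replicate block), with an adjusted p of 0.992 in limma, and so did not pass. For RPS7, a small subunit protein, NH4Cl minus control was −0.10, −0.01 and −0.03, and with TGF-β 0.11, 0.02 and 0.05. Its interaction was 0.11, with an adjusted p of 0.992 with the block. The library of replicate 1 with both agents was high for most members, and its part in these values was not tested.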

How the results depend on the processing

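All values here are counts of ribosomal protein genes past the threshold in limma unless another quantity is named. With the replicate block the count went from 0 to 6 for NH4Cl against control, to 3 for NH4Cl and TGF-β against control and to 1 against TGF-β, and the block changed no other call. In the replicates 1 and 2 alone, an alternative chosen after seeing the data, the counts without the block were 3, 1 and 0. The rest of the comparisons of groups kept a count of 0 without the block under every alternative. The alternatives run with the block were also chosen after seeing the data. By the stricter threshold of adjusted p under 0.01 the blocked counts were 0, 0 and 0, beside 4.68%, 7.64% and 7.21% of all genes. With no filter they were 0, 0 and 0, beside 4.36%, 6.31% and 6.12%. Without the intensity trend the counts were 2 for NH4Cl and 1 for both agents against control, beside 12.1% and 17.1%. With only the groups compared, hence fewer samples, both agents gave 0 against control and 0 against TGF-β, beside 12.1% and 9.22%. In the replicates 1 and 2 alone the blocked counts were 2, 1 and 0, beside 9.42%, 13.1% and 13.6%. With a common sum, both agents gave 6 against control and 6 against TGF-β, where a minimum of 5 FPKM gave 4 and centring gave 2; the cause was not tested. Leaving out 1 library gave 0 to 1 for NH4Cl against control, 0 to 6 for both agents against control and 0 to 7 against TGF-β.

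With a common sum, 21 members passed in replicate 3 against replicate 1 and 25 against replicate 2, or 27.6% and 32.9%. These shares stood beside 60.7% and 64.3% of all genes, whose median also shifted. Without this scaling, leaving out 1 library gave 49 to 70 and 65 to 73 members. Of all genes, 45.6% to 51.2% and 46.8% to 54.3% passed in those fits. The ratio of large to small subunit was 1.43 without the 5 members of highest mean FPKM and 0.649 as a ratio of medians, since fewer or equally weighted genes enter. The difference of summed FPKM between NH4Cl and control was −8.35% to 1.67% when 1 library was left out. None of the 26 log2 fold changes recomputed, of 13 members, reversed; other genes were not recomputed under all alternatives. With the block 63 of their values stayed past the threshold and 97 did not, and all 304 between replicate numbers did. RPL22L1, a low member, had 340 to 719 reads per library, and the part of depth in its values was not tested.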
